A study of Homo sapiens with 6 samples.

Results

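The replication licensing and replisome group held 10 genes, named by symbol and all measured, among 14884 genes with values in spheroid cultures of 2 colorectal cancer cell lines. They were E2F1, CDC6, CDT1, MCM2, MCM3, MCM5, MCM6, MCM7, GINS1 and GINS3, and each had 1 feature on the array. SW480 is an established line from a primary colorectal tumour, and SW620 is one from a lymph node metastasis. Total RNA of the spheres, grown with growth factors but no serum, was hybridised to 6 whole-transcript arrays, 3 for each line. Per the design text the 3 arrays of each line are technical replicates. Every p-value and SD given here therefore measures the spread between arrays and not between cultures. The comparison asks how the cells able to start tumours differ between the lines. Whether the spheres hold such cells was not tested here. No adherent culture or sorted fraction was analysed here, and each line stands for itself alone.

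Before a cell copies its DNA, it licenses origins of replication. CDC6 and CDT1 load the ring-shaped helicase core made of MCM2 to MCM7 onto DNA bound by the origin recognition complex, and kinases then switch the ring on by joining it to CDC45 and the GINS complex. The transcription factor E2F1, held in check by the retinoblastoma protein until cyclin-dependent kinases release it, drives many of these genes as cells pass from G1 into S phase. In the intestine they are mostly active in the dividing cells of the crypt, and colorectal cancers keep them on.

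The RefSeq promoters of the members show how far they share the E2F type of sequence. A stretch of 115 bases, from 100 before to 15 after the start of transcription, is given for 3 genes that were lower in SW620 (E2F1, MCM7 and MCM6) and 2 that were higher (MCM3 and GINS3). Bases are written 5′ to 3′ on the gene's strand in assembly GRCh38.p14, with matches to an E2F-type motif in capitals.
E2F1 (chr20:33686371-33686485, minus strand): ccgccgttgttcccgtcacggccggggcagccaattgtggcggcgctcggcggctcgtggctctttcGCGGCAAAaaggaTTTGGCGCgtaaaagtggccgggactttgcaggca
MCM7 (chr7:100101383-100101497, minus strand): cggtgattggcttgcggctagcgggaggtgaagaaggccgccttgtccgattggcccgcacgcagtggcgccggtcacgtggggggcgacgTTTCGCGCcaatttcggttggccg
MCM6 (chr2:135876429-135876543, minus strand): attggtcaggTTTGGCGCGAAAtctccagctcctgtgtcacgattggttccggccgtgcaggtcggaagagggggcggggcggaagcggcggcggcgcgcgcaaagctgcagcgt
MCM3 (chr6:52284728-52284842, minus strand): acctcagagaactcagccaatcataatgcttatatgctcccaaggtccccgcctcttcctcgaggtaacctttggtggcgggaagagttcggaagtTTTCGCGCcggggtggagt
GINS3 (chr16:58392371-58392485, plus strand): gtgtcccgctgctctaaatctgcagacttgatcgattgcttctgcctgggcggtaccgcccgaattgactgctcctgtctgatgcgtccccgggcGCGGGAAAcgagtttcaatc

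The letters searched were TTTGGCGC, TTTCCCGC, TTTGCCGC and TTTCGCGC on both strands, in the 300 bases from 250 before to 50 after the start. Promoters of 9 members were matched, and MCM5 had none in the table. All 9 members held at least 1 match, against 3.31% of 35116 promoters in the table and 5.38% of the 10749 measured genes with a promoter there. Since all 9 held a match, its presence could not separate members that rose from those that fell. In MCM6 both matches were 12 bases long, since the motif overlaps its own reverse strand there, and the same 12-base form in a variant spelling lay 3 bases into the MCM2 transcript. MCM7 has 3 listed starts, and only the outermost, printed above, held the letters. Of the 578 measured genes with a match, 24.7% were higher and 22.1% lower in SW620, against 17.0% and 21.1% of the 10171 without one. These groups were not balanced for expression level. Among the 9475 genes brighter than the median feature of the array, 2130 were higher and 2593 lower. The CCAAT box (letters CCAAT, both strands) occurred in 6 of the 9 members and in 34.6% of all promoters, and the E-box CACGTG in MCM2 and MCM7 and in 7.26% of all promoters. A match describes these letters and not a bound site.

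**Figure D1:**
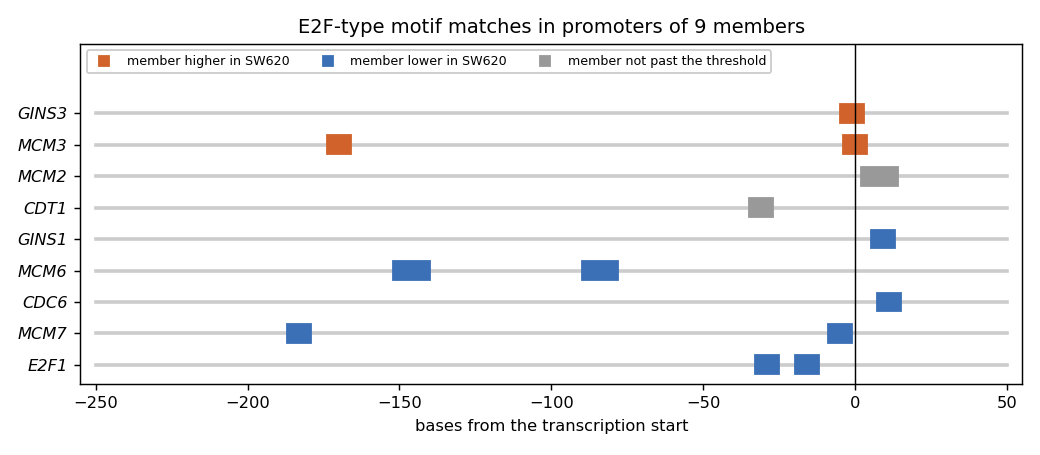
Matches to the E2F-type motif in the 300-base promoters of 9 members, as boxes along a line of bases from the start of transcription (0), coloured by the member's call. Genes higher, lower and not past the threshold all carry matches, most of them within 35 bases of the start.

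On the log2 scale of the deposited table, the members lay between 6.12 and 10.03 on single arrays, well above the median feature (4.065). Differences are SW620 minus SW480, from limma fitted over all 14884 genes, and a gene is said to have risen or fallen where its Benjamini-Hochberg adjusted p was below 0.05. Of the 10 members, 3 rose in SW620, 5 fell and 2 did not pass. Of all genes 35.6% passed, 16.0% as higher and 19.5% as lower. Among the 9475 genes brighter than the median feature, as all members were, 49.8% passed, 2130 as higher and 2593 as lower. The arrays of the lines did not overlap for 9 of 10 members, against 45.7% of all genes and 5684 of the 9475 brighter ones. No member differed by 2-fold, and the median size of the difference was 0.44, against 0.17 over all genes and 0.26 over the brighter ones. The members and the lists below were chosen with earlier results of these data known. Their shares and sizes beside the background are therefore a description and no support for an excess. With sign, the members' median difference was -0.0911 and that of all genes 0.0132. It ran from -0.14 without SW620 replicate 1 to -0.0464 without SW620 replicate 3. In bulk RNA, fewer cells in S phase and less RNA per cell cannot be told apart. An exact permutation test of 3 arrays against 3 cannot give a p below 0.10, so single genes were read from limma alone.

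**Figure D2:**
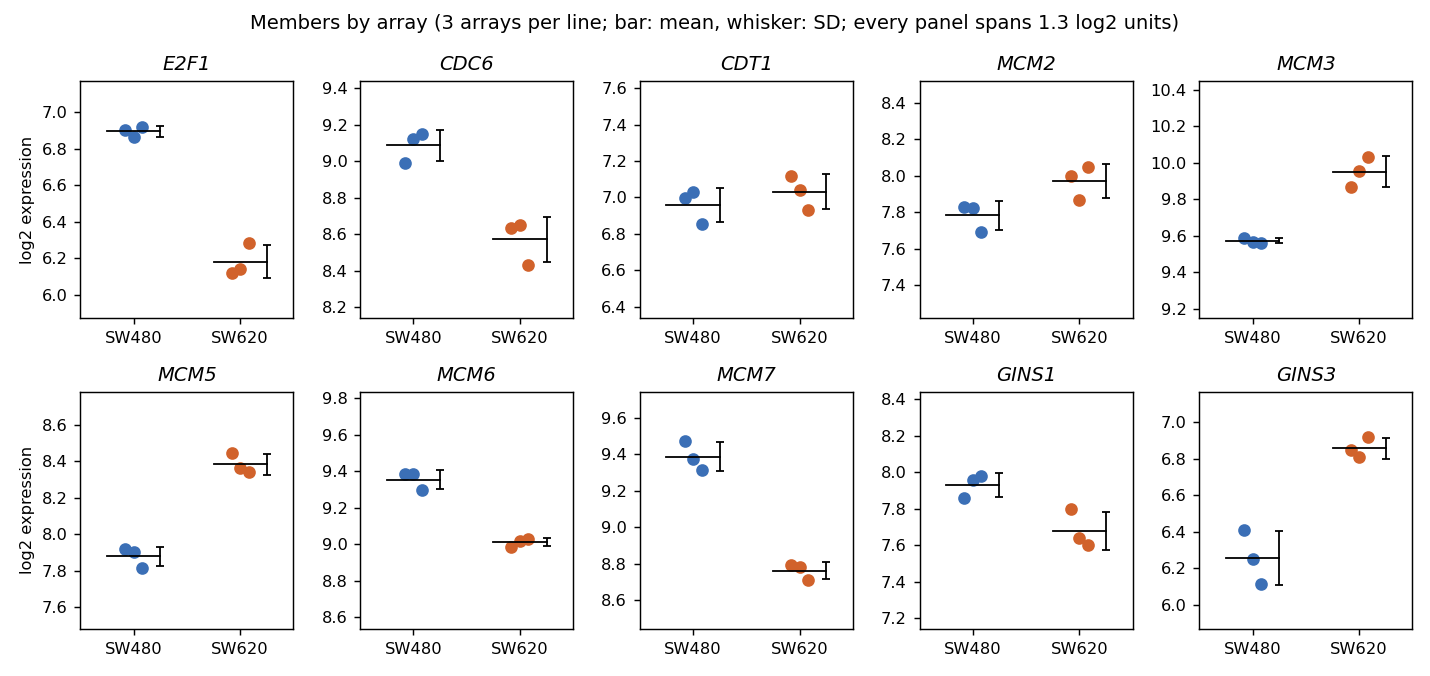
Log2 expression of each member on each array (dots), with the mean (bar) and SD (whisker) of 3 arrays per line; every panel spans 1.3 log2 units, so distances compare between panels and heights do not. Only CDT1 has arrays of the lines that overlap.

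E2F1, the transcription factor upstream of the group, fell the most. Its level was 6.90, 6.86 and 6.92 on the SW480 arrays and 6.12, 6.14 and 6.28 on the SW620 arrays. Every SW620 array lay below every SW480 array, by a gap several times the spread within a line. The difference was -0.71 (standard error 0.0836, adjusted p = 1.76e-05), a 1.64-fold lower level, and its size exceeded that of 89.6% of all genes.

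The loading factors behaved unequally. CDC6, the ATPase that brings the helicase to the origin, was at 8.99, 9.12 and 9.15 in SW480 and at 8.63, 8.65 and 8.43 in SW620. The lines did not overlap, and CDC6 fell by 0.52 (standard error 0.0919, adjusted p = 0.000616), or 1.43-fold. CDT1, its partner in loading, was at 6.995, 7.03 and 6.86 in SW480 and at 7.12, 7.04 and 6.93 in SW620. These ranges overlapped, and the difference of 0.0705 had a 95% interval from -0.12 to 0.26 (adjusted p = 0.601). The interval leaves room for a change in CDT1 in either direction, but its lower bound does not reach the fall of CDC6.

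The helicase subunits, which make up 1 ring in equal numbers, went in opposite directions at the RNA level. MCM7 fell from 9.48, 9.37 and 9.32 in SW480 to 8.79, 8.78 and 8.71 in SW620 (-0.63, standard error 0.0835, adjusted p = 5.63e-05, 1.54-fold lower). MCM6, which forms a stable subcomplex with MCM4 and MCM7, fell from 9.38, 9.39 and 9.30 to 8.99, 9.02 and 9.03 (-0.34, standard error 0.0799, adjusted p = 0.00425). Both were lower on every SW620 array. MCM5 rose, from 7.92, 7.90 and 7.82 to 8.45, 8.36 and 8.34 (0.50, standard error 0.0819, adjusted p = 0.000294, 1.42-fold). MCM3, which pairs with MCM5 in the ring, rose from 9.59, 9.57 and 9.56 to 9.87, 9.96 and 10.03 (0.38, standard error 0.0827, adjusted p = 0.00278). The SW480 arrays were especially close for MCM3, with an SD of 0.0135.

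MCM2 lay at 7.83, 7.82 and 7.69 in SW480 and at 7.996, 7.87 and 8.05 in SW620. Its arrays did not overlap, yet it missed the threshold (0.19, 95% interval -0.00119 to 0.38, adjusted p = 0.119). The remaining subunit MCM4, added after the values had been seen, differed by -0.0538 (95% interval -0.23 to 0.12, adjusted p = 0.662). At the RNA level, 2 subunits of the ring therefore rose, 2 fell and 2 did not pass. The opposite directions can be read within single arrays, where a shift shared by all genes of an array cancels. A shift that varies with expression level does not cancel there. MCM5 minus MCM7 lay between -1.56 and -1.47 in SW480 and between -0.42 and -0.35 in SW620, a change of 1.13 on the log2 scale. MCM3 minus MCM6 moved from between 0.18 and 0.27 to between 0.88 and 1.01, a change of 0.72. These pairs were set against each other after the values had been seen, so the shifts are a description.

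The GINS complex, the 4-subunit part that joins the ring to CDC45, was split as well. GINS3 rose from 6.41, 6.25 and 6.12 in SW480 to 6.85, 6.81 and 6.92 in SW620 (0.60, standard error 0.0933, adjusted p = 0.000203, 1.52-fold), the largest rise of the members. The SW480 arrays of GINS3 were the most spread of any member, with an SD of 0.15, and all still lay below the SW620 arrays. GINS1 was at 7.86, 7.96 and 7.98 in SW480 and at 7.80, 7.64 and 7.60 in SW620. The highest SW620 array lay just under the lowest SW480 array, and GINS1 fell by 0.25 (standard error 0.0878, adjusted p = 0.0396). This is the least certain call of the members. It was lost without SW480 replicate 2 or 3 or SW620 replicate 2 or 3 (adjusted p from 0.107 to 0.120) and with each array centred on its 75th percentile (-0.23, adjusted p = 0.0684). GINS2 and GINS4, the other subunits, were added after their values had been seen. GINS2 fell by 0.24 (adjusted p = 0.0492), a call lost without SW480 replicate 2 or 3 or SW620 replicate 1 or 3 (adjusted p from 0.115 to 0.151) and with centring on the 75th percentile (-0.21, adjusted p = 0.0786). GINS4 differed by 0.0885 (adjusted p = 0.574), with a sign that turned when its features were averaged (-0.0336) and without SW620 replicate 2 (-0.0155).

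**Figure D3:**
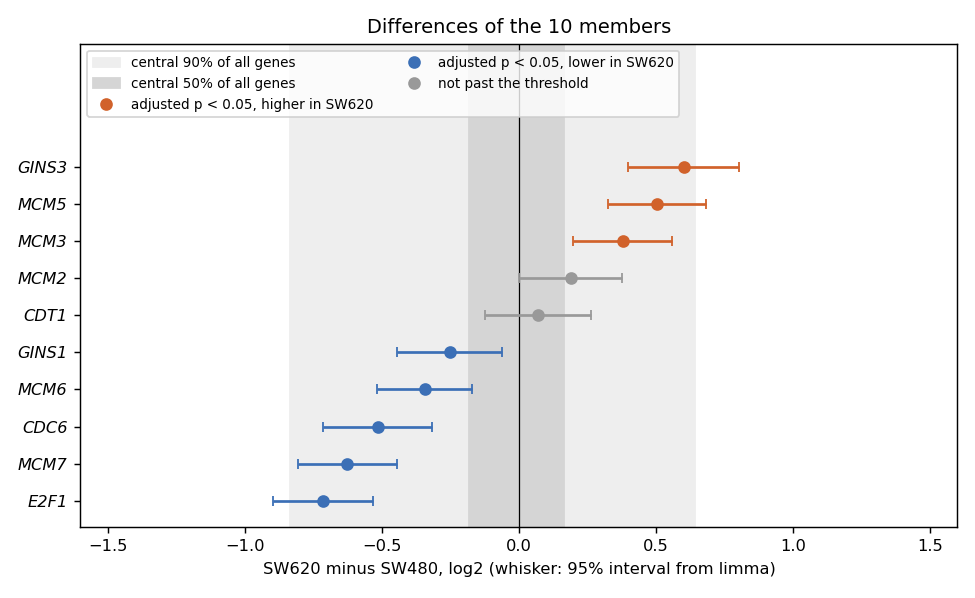
SW620 minus SW480 for the 10 members on the log2 scale (dots) with 95% intervals from limma, over shaded bands that hold the central 50% (-0.18 to 0.17) and central 90% (-0.83 to 0.64) of all 14884 genes. The 8 members that passed lie outside the inner band and all 10 lie inside the outer one.

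The members lie on 8 chromosomes, and for some of them the genes nearby moved the same way. For each member the 10 measured genes on either side along the chromosome were taken, by RefSeq order. Counts of neighbours stand beside the shares over all genes, 16.0% higher and 19.5% lower in SW620. The 20 neighbours of GINS3 on chromosome 16 had a median difference of 0.50, close to that of GINS3 itself (0.60), with 14 higher and 1 lower in SW620. Over chromosome 16 the median of 608 genes was 0.11. The 20 neighbours of MCM7 on chromosome 7 had a median of -0.51 beside -0.63 for MCM7, with 13 lower and 0 higher, while the median of 700 genes of that chromosome was -0.13. These neighbours include MIR25, MIR93 and MIR106B, microRNA genes that lie inside MCM7, and MIR25 is among the 13 lower. Its feature may carry signal of the MCM7 transcript. The width of the window was varied after the values had been seen. The medians stayed between 0.40 and 0.51 for GINS3 and between -0.62 and -0.51 for MCM7 with 5 or 20 genes on each side, and with protein-coding genes that do not overlap the member. With only neighbours brighter than the median feature they were 0.57 for GINS3 and -0.74 for MCM7. At an unadjusted p below 0.05, 1 of the MCM7 neighbours was higher.

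Around most other members the medians over all 20 neighbours lay further from the member. The neighbours of E2F1 on chromosome 20 had a median of -0.0710 with 2 higher and 2 lower, and none of them was as low as E2F1, since the lowest differed by -0.42. The neighbours of MCM5 had a median of 0.0270, those of MCM6 0.0180 and those of MCM3 -0.0213, near 0 and with signs that turned in some settings. With only neighbours brighter than the median feature these became 0.19 for MCM5, -0.0935 for MCM6 and 0.27 for MCM3, each then on the same side of 0 as its member. CDC6 on chromosome 17 stood between, with a median of -0.17 around it and 7 of 20 neighbours lower, and a median of -0.31 over 5 genes on each side and of -0.34 over the brighter neighbours. MCM2 had a positive difference of 0.19, which did not pass, amid genes with a median of -0.29 and 10 of 20 lower, a median that came to -0.0730 with 20 genes on each side and to -0.49 over the brighter ones. Of the 20 neighbours of GINS1, 6 were lower, against 19.5% of all genes, and 1 was higher, with a median of -0.0701. CDT1 had a median of 0.00407 around it. Whether DNA copy number moved with these stretches was not tested, because the arrays measured RNA only.

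**Figure D4:**
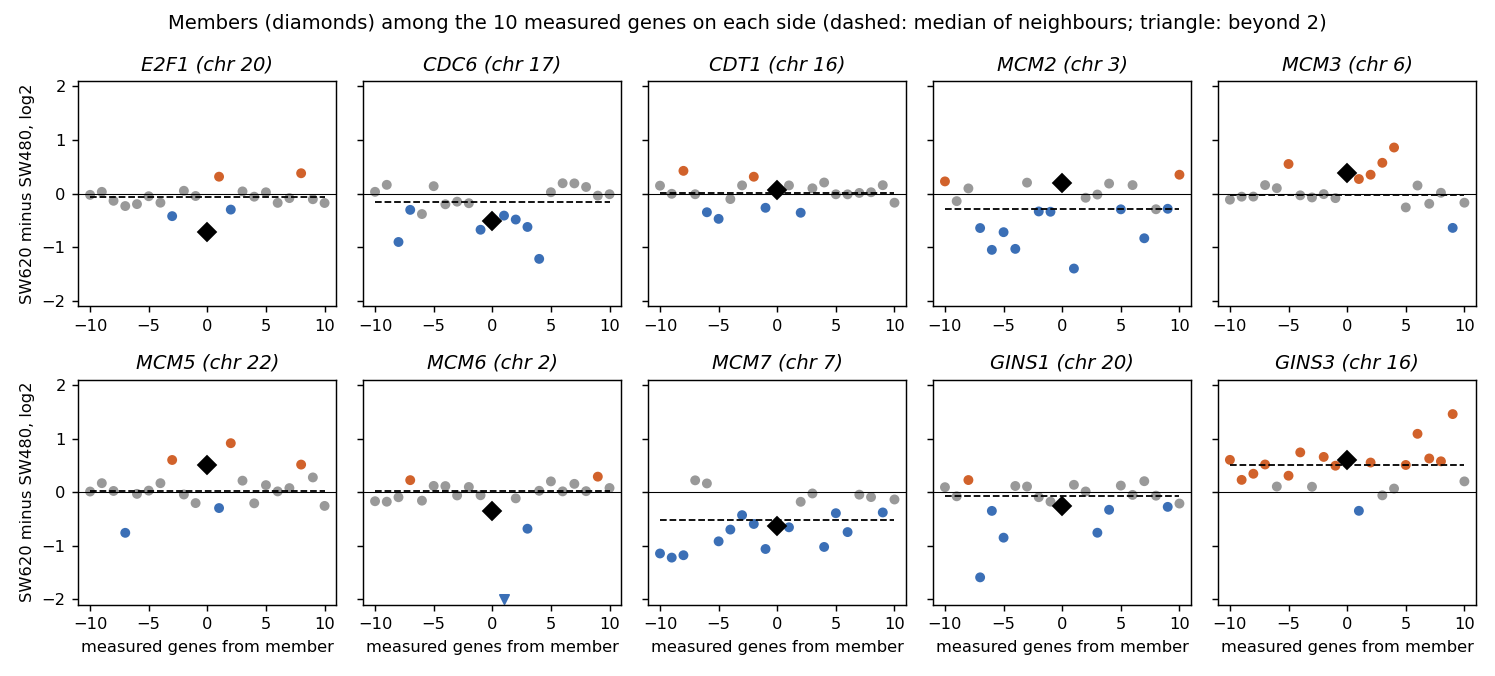
SW620 minus SW480 on the log2 scale for each member (diamond, at 0) and the 10 measured genes on each side in chromosome order; orange and blue mark genes called higher and lower, grey those that did not pass, the dashed line the neighbours' median, and a triangle a value beyond the axis. The lines for GINS3 (0.50) and MCM7 (-0.51) run close to the member, and those for E2F1 (-0.0710) and MCM5 (0.0270) do not.

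MCM7 also carries 3 microRNAs inside its own gene, on the same strand, and each had a feature of its own on the array. MicroRNAs pair with messenger RNAs through their seed, bases 2 to 8. The mature forms are printed from RefSeq (GRCh38.p14) with the seed in capitals, because miR-93-5p and miR-106b-5p share it and E2F1 is a known target of that seed family.
hsa-miR-106b-5p (chr7:100094043-100094063, minus strand): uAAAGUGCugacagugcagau
hsa-miR-93-5p (chr7:100093815-100093837, minus strand): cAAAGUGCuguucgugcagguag
hsa-miR-25-3p (chr7:100093571-100093592, minus strand): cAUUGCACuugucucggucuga

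The MIR25 feature was at 5.28, 4.93 and 5.23 in SW480 and at 4.42, 4.53 and 4.52 in SW620, and it fell by 0.65 (standard error 0.102, adjusted p = 0.000203), a difference like that of MCM7. The MIR93 feature was dimmer, 4.45 ± 0.23 (SD, n = 3) in SW480 and 4.28 ± 0.13 in SW620, and its difference of -0.18 did not pass (adjusted p = 0.273). It passed in 1 setting, without SW480 replicate 1 (-0.31, adjusted p = 0.0408). The MIR106B feature lay below the median feature in both lines (3.82 and 3.80) and showed no difference that could be read at that level (-0.0229, adjusted p = 0.884, with a sign that turned under other settings). The labelling of total RNA does not separate a hairpin from the MCM7 transcript around it, so these features say nothing of the mature microRNAs. They were added after the values had been seen.

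Around the members, the licensing list had 17 genes, of which 10 were measured and 7 of those were members. The other 3, MCM4, MCMBP and KAT7, did not pass in limma, with 0 of them at an unadjusted p below 0.05 either, and MCMBP, which unloads the ring, had the smallest p of them (log2 difference 0.13, adjusted p = 0.230). None of the 6 origin recognition complex genes, nor GMNN, the inhibitor of CDT1, had a named feature, and they were not analysed here.

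The step after licensing showed another split between partners. CDC7 and DBF4 together form the kinase that switches the loaded ring on, DBF4 being the regulatory subunit. CDC7 rose from 7.72, 7.85 and 7.77 in SW480 to 8.26, 8.28 and 8.29 in SW620 (0.49, standard error 0.0810, adjusted p = 0.000316). DBF4 fell from 9.13, 9.16 and 9.26 to 8.13, 8.13 and 8.35 (-0.98, standard error 0.0907, adjusted p = 2.05e-06, 1.97-fold lower). The alternative regulatory subunit DBF4B fell too, by 0.44. WDHD1, which ties the helicase to polymerase alpha, rose by 0.47. Of 12 measured firing and helicase genes besides GINS1 and GINS3, 2 rose, 5 fell and 5 did not pass, with a median difference of -0.16. That is 58.3% passing, against 49.8% of the genes brighter than the median feature. The fork protection factor DONSON fell by 0.26 (adjusted p = 0.0241), a call lost without SW480 replicate 1 or 3 or SW620 replicate 1 or 2 (adjusted p from 0.0659 to 0.0787). With GINS1 included 6 genes of the list fell, and between 2 and 4 did when any 1 array was left out, fewest without SW480 replicate 3.

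Of 9 fork proteins measured from a list of 34, 6 rose, 1 fell and 2 did not pass. Of all genes 16.0% rose, and of the 9475 genes brighter than the median feature 2130 did. Leaving out any 1 array left 4 or 5 fork proteins that rose. The median difference was 0.32, against 0.0132 over all genes. DNA2, the nuclease and helicase that trims flaps and resects DNA ends, rose from 7.41, 7.17 and 7.36 to 8.69, 8.65 and 8.75 (1.38, standard error 0.0898, adjusted p = 6.51e-08, 2.61-fold). The checkpoint mediator CLSPN rose by 0.50 and the fork protection factor TIPIN by 0.48. TOP2A, the topoisomerase that untangles copied chromosomes, fell by 0.41 (adjusted p = 0.00122). The other genes that rose, named after their values had been seen, were the sliding clamp PCNA (0.25), the flap nuclease FEN1 (0.32) and the fork protection factor TIMELESS (0.35), the partner of TIPIN. PCNA kept its call only without SW620 replicate 1 among the 6 single-array omissions (adjusted p from 0.0593 to 0.143 in the others), and lost it with repeated quantile normalization (0.22, adjusted p = 0.0599) and cyclic loess (0.19, adjusted p = 0.101). FEN1 lost its call without SW480 replicate 1 or 3 or SW620 replicate 1 or 3 (adjusted p from 0.0733 to 0.0948), and TIMELESS without SW480 replicate 2 (adjusted p = 0.0585). The polymerase, primase, RPA and RFC genes of the list had no named feature and were not analysed here.

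Among genes upstream of E2F1, the cyclins CCND1 and CCND2, which start the release of E2F from the retinoblastoma protein, fell by more than any member. CCND2 was at 8.04, 7.84 and 7.92 in SW480 and at 3.77, 3.998 and 3.92 in SW620, a difference of -4.04 (standard error 0.0929, adjusted p = 5.49e-12). Its SW620 mean (3.90) lay below the median feature, so the 16.4-fold rests on a level near the floor. CCND1 fell 2.29-fold, from 8.61 ± 0.0325 to 7.41 ± 0.0502 (SD, n = 3 each). The remaining D-type cyclin CCND3, named after its value had been seen, went the other way (0.25, adjusted p = 0.0401), a call kept only without SW480 replicate 3 among the 6 single-array omissions (adjusted p from 0.0655 to 0.180 in the others). E2F8, of the same family as E2F1, fell by 0.91 (adjusted p = 5.47e-06). The cyclin CCNE2 rose by 0.35 and the family members E2F3 and E2F7 by 0.31 and 0.29. The related cyclin CCNE1 fell by 0.45 (adjusted p = 0.000872), and RB1, the gene of the retinoblastoma protein, fell by 0.35 (adjusted p = 0.00422). Both were named after their values had been seen. The call of E2F3 was lost without SW480 replicate 2 or SW620 replicate 2 or 3 (adjusted p from 0.0571 to 0.123), and that of E2F7 without SW480 replicate 1 or 3 or SW620 replicate 1 or 2 (adjusted p from 0.0670 to 0.0773). Of 18 measured genes of this pathway besides E2F1, 4 rose, 7 fell and 7 did not pass. That is 61.1% passing, against 49.8% of the genes brighter than the median feature. The 4 that rose became 1 without SW620 replicate 2 and 2 without SW480 replicate 1 or 2 or SW620 replicate 1.

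Genes for the supply of DNA building blocks were balanced, with a median of 0.00209. Of 12 measured, 3 were higher, 5 lower and 4 not past the threshold. That is 66.7% passing, against 49.8% of the genes brighter than the median feature. The large subunit of ribonucleotide reductase, RRM1, rose by 0.36, while the small subunits RRM2 and RRM2B fell by 0.33 and 0.34. RRM2B lost its call without SW480 replicate 1 or 2 or SW620 replicate 3 (adjusted p from 0.0506 to 0.0585). The CTP synthase CTPS1 and the salvage kinase DCK rose by 0.49 and 0.40, and the thymidylate synthase TYMS fell by 0.41. The 5 lower genes became 2 without SW480 replicate 1 or 2 and 3 without SW620 replicate 1 or 3.

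Of 7 measured genes that control CDT1 and CDC6 protein, 3 rose and 0 fell in limma, with 0 lower at an unadjusted p below 0.05. The 42.9% that passed lie between the 35.6% of all genes and the 49.8% of genes brighter than the median feature. FBXO5, the inhibitor of the anaphase-promoting complex, rose by 0.60 (adjusted p = 0.000267). CUL4A and DTL, scaffold and adaptor of the ligase that destroys CDT1 in S phase, rose by 0.38 and 0.30, the call of DTL being lost without SW480 replicate 1 or SW620 replicate 1 (adjusted p = 0.0555 and 0.0541). Mitotic genes were mixed, with 3 higher and 8 lower of 17 measured (64.7% passed) and a median of -0.21. The spindle checkpoint genes MAD2L1 and BUB1 fell by 0.91 and 0.74 and the phosphatase CDC25C by 0.75. CDK1, CCNB1 and PLK1 rose by 0.45, 0.41 and 0.32. The part of the cells' position in the cycle in any of these differences was not tested.

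**Figure D5:**
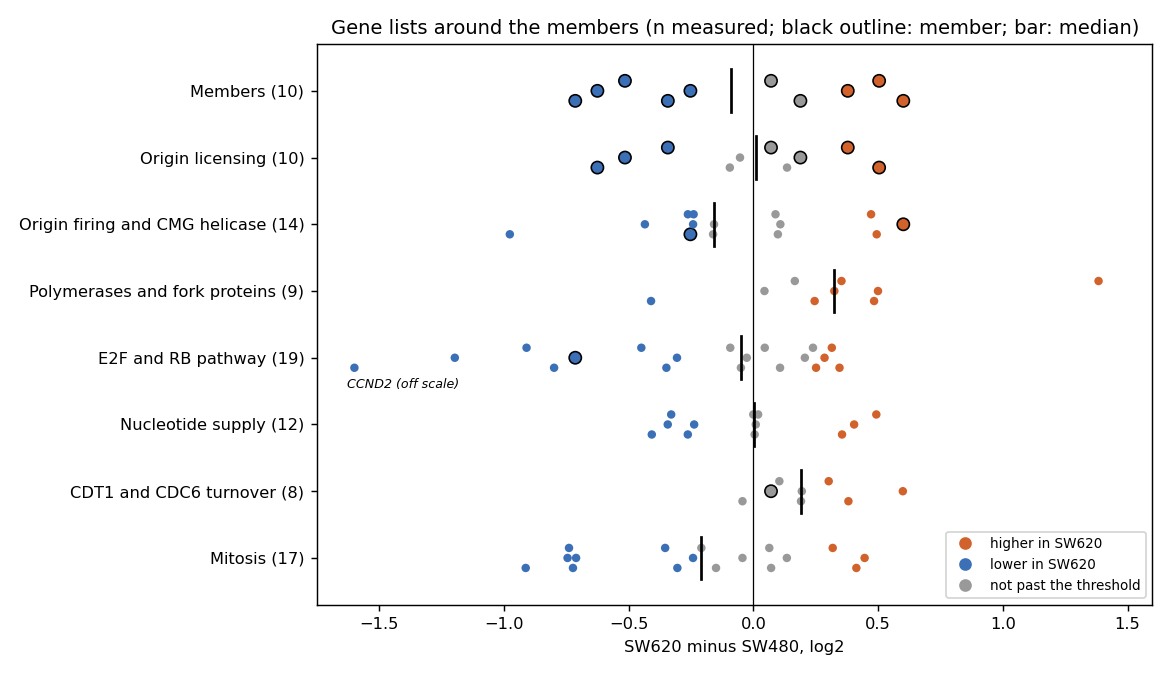
SW620 minus SW480 on the log2 scale for each measured gene of 8 lists (dots; black outline for members, bar for the median, number measured in brackets). Fork proteins lie mostly to the right (6 of 9 higher), mitotic genes more to the left (8 of 17 lower), and CCND2 (-4.04) is drawn at the edge of the axis.

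By the shape of the profile over the 6 arrays, after the mean of each gene was subtracted, the genes most like E2F1 among 70 others of the replication, E2F and nucleotide lists were MCM7 (root mean square distance 0.103 on the log2 scale), DBF4 (0.137) and TFDP2 (0.141). TFDP2, a partner of E2F proteins in DNA binding, fell by 0.80. The genes most like GINS3 were CLSPN (0.0874), MCM5 (0.0926) and FBXO5 (0.0979). With only 2 lines, likeness reflects mainly the size and direction of the difference between them.

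The arrays gave no sign of a library apart from its group. Arrays of a line correlated with r from 0.988 to 0.992 across features, and arrays of different lines from 0.963 to 0.965. Of 12 listed colon epithelium markers 8 were measured, and 6 of those were above the median feature in both lines. The mean log2 level of the 8 per array ran from 7.22 to 7.29 in SW480 and 7.25 to 7.28 in SW620. CDX1 lay below the median feature in both lines (3.84 in SW480 and 3.80 in SW620), and KRT20 lay just under it. VIL1, KRT19 and KRT8 rose by 0.62, 0.51 and 0.40, and CDX2 fell by 1.54. Endothelial markers (8 measured of 10 listed) were dim in both lines, with a mean per array from 3.72 to 3.82, and FLT1 was 0.34 lower in SW620. Of 10 listed leukocyte markers only 4 were measured, with means from 4.83 to 4.94, and of those CD68 rose by 0.43 and LAPTM5 fell by 0.41. Of 10 listed fibroblast markers only 3 were measured. LUM rose by 3.22 (4.73 ± 0.39 in SW480, 7.95 ± 0.12 in SW620), which set the range of the list's mean (3.92 to 4.19 and 5.16 to 5.24). DCN stayed below the median feature at 3.09 and 3.26, and THY1 lay just above it at 4.43 and 4.40, neither past the threshold. Their part in the members' differences was not tested.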

How the data were processed

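Per the labels and the submitters' processing notes, the authors hybridised biotin-labelled sense-strand cDNA and made the deposited log2 values with Partek and RMA, in versions and settings not given in the sources used here. No source gives the log base, and base 2 was assumed because the values span 1.99 to 13.92. Neither detection calls nor raw intensities were used here, and RMA can understate differences of dim genes.

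Of 53616 features, 16098 had 1 gene symbol in the platform's annotation, and all of these matched RefSeq (GRCh38.p14), used for names and gene order. The feature with the highest mean stood for a gene, which gave 14884 genes. All of them entered a limma fit of the line effect (limma 3.58.1, R 4.3.3, lmFit and eBayes, two-sided, no covariates), with Benjamini-Hochberg adjustment over all genes at 0.05. Standard errors and 95% intervals are moderated. No list was tested as a set. Sequences came from RefSeq tables.

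Named genes were all members and, from each other list, up to 3 changed genes per direction, or the smallest p. The members and lists were chosen with earlier results of these data known, and the neighbouring genes, alternatives and likeness rule with them.

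The scripts were checked on simulated arrays of 14884 genes with known changes, 50 genes at each size. Changes of 0.25 on the log2 scale were recovered for 0 of 50, of 0.5 for 33, of 1 for 49 and of 2 for 50. Few genes changed there, which makes the adjusted threshold stricter than in these data. A gene that did not pass can still differ by a small amount. Alternatives were other scalings, a filter, another variance model, averaged features, a replicate block, stricter thresholds and leaving out each array.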

Additional observations from a re-analysis of the deposited data

How the results depend on the processing

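All 10 members kept their direction in all 16 alternatives. A member's difference cannot change under the filter, the variance model, averaged features, the replicate block or the stricter thresholds. Direction could turn only under the other scalings or with an array left out. E2F1, MCM7 and GINS3 also kept their calls in all 16 alternatives, with differences from -0.77 to -0.68, -0.68 to -0.58 and 0.53 to 0.68. CDT1 and MCM2 passed in none of them. GINS1 (-0.25 in the main setting) ran from -0.31 to -0.21 when 1 array was left out and lost its call when arrays were centred on the 75th percentile (-0.23), with the replicate block (-0.25, adjusted p = 0.0629) and at an adjusted p below 0.01 (-0.25). A minimum of 1.5-fold left 1 member higher and 2 lower, since CDC6 (-0.52), MCM3 (0.38), MCM5 (0.50), MCM6 (-0.34) and GINS1 (-0.25) are smaller than that. The members' median ran from -0.14 to -0.0464 over the left-out arrays.

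At that minimum, higher and lower genes numbered 0 and 1 for licensing, 1 and 1 for firing, 1 and 0 for fork proteins, 0 and 5 for the E2F pathway, 0 and 0 for nucleotide supply, 0 and 5 for mitosis and 860 and 1283 for all genes, and 1 turnover gene was higher. These smaller numbers follow from the added minimum. At an adjusted p below 0.01, 2 firing genes were lower, 3 fork genes higher, 1 E2F pathway gene higher and 2 nucleotide genes lower. The lower firing genes numbered 3 with centring on the 75th percentile and 3 with the replicate block, and 2 to 4 with 1 array left out. The higher E2F pathway genes then numbered 1 to 4 and the lower nucleotide genes 2 to 4. GINS4 turned sign with averaged features (-0.0336) and ran from -0.0155 to 0.18 over left-out arrays. MIR106B was 0.00412 with centring on the 75th percentile and ran from -0.0931 to 0.0422. The cause of these shifts was not tested.

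Arrays of the same replicate number did not deviate together (r = -0.00889, -0.0234 and -0.0119 across genes), so the numbers do not pair them, and 0 of 6 arrays correlated best with their own number. The replicate block changed all-gene counts to 2353 higher and 2862 lower. Calls of GINS2 (adjusted p = 0.0651), PCNA (0.0619) and CCND3 (0.0532) were lost with the block, and that of CCND3 with a trended variance (0.0645). The number of arrays, 3 per line, limits the precision of every interval.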

Other observations

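The helicase relatives MCM8 and MCM9, which act together in homologous recombination and are no part of the replicative ring, were higher in SW620. MCM9 was at 6.02, 6.06 and 6.01 on the SW480 arrays and at 7.06, 6.88 and 6.94 on the SW620 arrays. That difference of 0.93 (standard error 0.0841, limma adjusted p = 1.60e-06, 1.90-fold) was larger than that of any subunit of the ring. MCM8 rose by 0.40 (adjusted p = 0.00219), with no overlap between the lines. MCM10, which binds the active helicase, differed by 0.11 and did not pass (adjusted p = 0.350). These genes were chosen after their values had been seen.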
